A study of Mus musculus with 13 samples.

Results

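CC chemokines are small secreted proteins that direct the movement of leukocytes, and 9 of them with known roles in the gut were followed here: Ccl2, Ccl3, Ccl4, Ccl5, Ccl7, Ccl8, Ccl20, Ccl25 and Ccl28. They were found on the array as the 11 probes that carry one of these gene names, out of 55681 probes in all. Of the 9 genes, 8 gave a signal well above background on at least 2 of 13 arrays and were among the 25486 genes tested. Ccl20 did not, and no difference was computed for it.

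The arrays held RNA of colorectal tissue of CPC-Apc mice, which carry 1 Apc allele flanked by loxP sites and a Cre recombinase driven by a CDX2 promoter (CDX2P-NLS Cre; Apc+/loxP), so that every group shares the loss of this Apc allele in cells where the promoter is active. There were tumors (2 arrays) and normal tissue (2 arrays) of mice given miR-200c, miR-302a to miR-302d, miR-369-3p and miR-369-5p, called microRNA mice below. There were tumors (7 arrays) and normal tissue (2 arrays) of control mice, whose labels name a negative control microRNA only in short form. Per the labels, 25 µg of each microRNA was bound to carbonate apatite and given into the tail vein in 24 injections, 3 per week, starting at 8 weeks of age, and control mice were taken to have had the same schedule. The labels do not say which animal gave which sample, so the p-values below measure the spread between samples, which may in part be technical or shared within an animal. Numbers in the file names, which may mark animals, are shared. Control tumors 4 to 7 have number 6, control tumors 1 and 2 have number 5, and control tumor 3 and control normal 2 have number 10. The 7 control tumors may thus come from fewer than 7 animals.

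Most CC chemokines are made on demand, in macrophages, fibroblasts and epithelium that sense inflammatory cytokines, and Ccl2 and Ccl7 call monocytes out of the blood through the receptor Ccr2. Ccl3, Ccl4 and Ccl5 attract several kinds of leukocytes, and Ccl5 is made in quantity by activated T cells and natural killer (NK) cells. Ccl25 and Ccl28 are made by epithelium without an inflammatory stimulus: Ccl25 is the homing signal of the small intestine for cells with Ccr9, Ccl28 is that of the colon and other mucosae for cells with Ccr10, and Ccl20 attracts cells with Ccr6.

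All levels are log2 signals relative to the 75th percentile of the same array, and between 50.7% and 57% of probes were well above background. That percentile had a raw signal of 214 to 320 on normal arrays and of 415 to 740 on tumor arrays. Scaling thus lowered tumor levels relative to normal ones, and a signal at background tends to come out lower in tumors. The reason for the unequal percentiles was not tested. Levels of different genes come from different probes and were not set against each other. The tissue pieces were not alike. The summed linear level of 9 small intestine genes was 5.02 and 7.41 times the percentile signal in microRNA tumors and 706 to 1130 times in microRNA normal tissue, against 0.777 to 107 times in control tumors and 102 to 280 times in control normal tissue. Markers of squamous epithelium (8 genes) summed to 11 and 38.1 in control normal tissue and to at most 5.49 on the other arrays. Hoxb13, a gene of the distal colon, was at −0.50 on microRNA normal 2, −1.57 on control tumor 1 and −4.53 on control tumor 5, and between 5.65 and 6.63 on the remaining arrays. Arrays sat on 2 slides: 8 on slide 1, with 1 normal array, from a microRNA mouse, and 5 on slide 2, with all 4 groups.

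The monocyte chemokines Ccl2, Ccl7, Ccl3 and Ccl4 were higher in tumors than in normal tissue, whereas Ccl25 and, among the genes counted as monocyte-attracting, Ccl5 were lower. Over both groups of mice this made 4 of 8 tested members higher, where 11.7% of all 25486 genes were called higher, and 2 of 8 lower, where 19.7% were called lower (limma, Benjamini-Hochberg adjusted p under 0.05). The 6 monocyte-attracting members had 4 higher and 1 lower, with a median difference of 1.81 on the log2 scale, and the 2 tested epithelial members had none higher and 1 lower, with a median of −2.26. The median over all genes was −0.11. The members were picked with earlier results of these arrays known, so these counts describe the members and do not test them as a group. In bulk tissue, fewer cells of a type and less RNA per cell cannot be told apart.

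**Figure D1:**
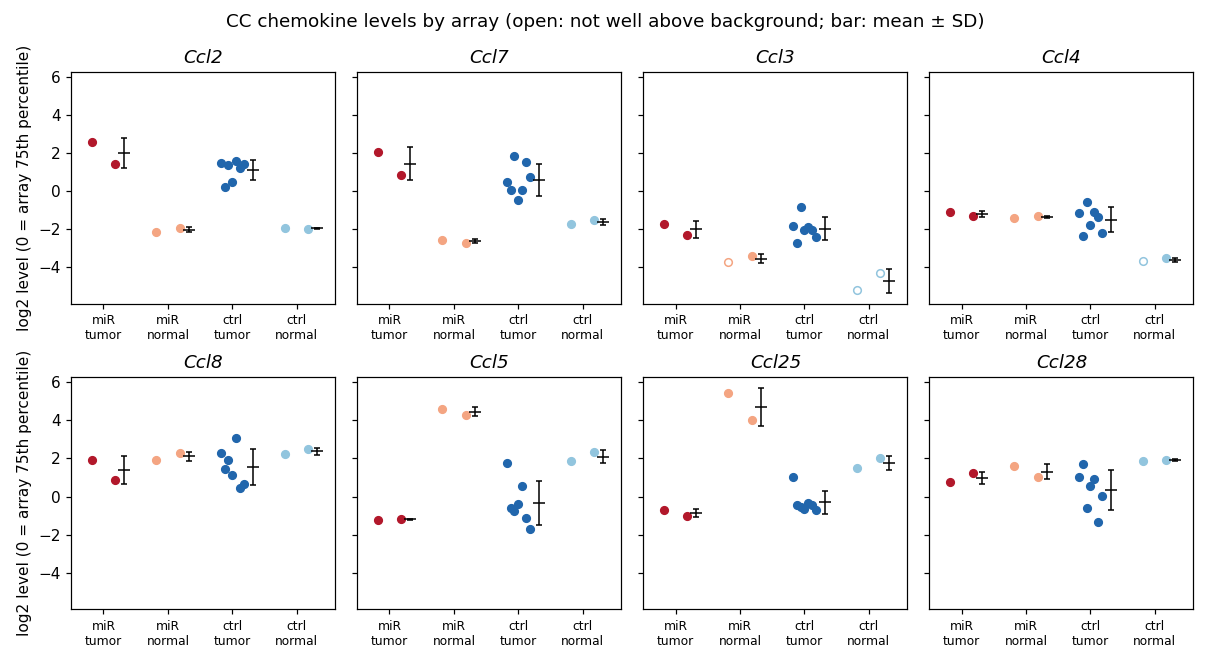
Levels of the 8 measured CC chemokines (log2, with 0 at the 75th percentile of the array) on each of the 13 arrays, in tumors and normal tissue of microRNA mice (miR) and of control mice (ctrl). Each point is an array, open points were not well above background, and the bar is the mean ± SD. Ccl2 and Ccl7 lie higher in tumors in both groups of mice, and Ccl5 and Ccl25 lie lower.

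Ccl2, the main monocyte-recruiting chemokine, was measured by 10 spots on each array (chr11:81850650-81850709, plus strand, mm9). It stood at 2.57 and 1.45 in microRNA tumors and at −2.12 and −1.92 in microRNA normal tissue. In control tumors it ran from 0.21 through a median of 1.39 to 1.57, against −1.92 and −1.96 in control normal tissue. Every tumor array lay above every normal array, and the 4 normal arrays lay within a narrow band while the tumors spread over more than 2 log2 units. The 10 spots of an array, some of them left out as outliers, had an SD between 0.041 and 0.226 in log2. Over both groups of mice the tumor level was 10.8-fold higher (log2 3.44, SE 0.32, adjusted p = 6.13e-05). The difference was 4.04 in microRNA mice (SE 0.48, adjusted p = 0.0018) and 3.05 in control mice (SE 0.39, adjusted p = 0.000895).

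Ccl7, which shares the receptor Ccr2 with Ccl2 and lies near it on chromosome 11 (probe at chr11:81860656-81860715, plus strand, mm9), took the same direction. Its levels were 2.05 and 0.83 in microRNA tumors, against −2.55 and −2.69 in microRNA normal tissue. Control tumors ran from −0.46 through 0.47 to 1.83, and control normal tissue had −1.72 and −1.51. Tumor and normal arrays did not overlap, with control tumor 4 the lowest tumor. The difference was 2.94 over both groups of mice (SE 0.48, adjusted p = 0.00167), 4.06 in microRNA mice (SE 0.67, adjusted p = 0.0101) and 2.22 in control mice (SE 0.54, adjusted p = 0.0199).

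Ccl8, a further chemokine of this cluster on chromosome 11 and in mice known as a ligand of Ccr8, did not pass the test. It had 1.91 and 0.88 in microRNA tumors and 1.94 and 2.27 in microRNA normal tissue. It ran from 0.44 through 1.42 to 3.06 in control tumors, against 2.23 and 2.51 in control normal tissue. Control tumor 5 was the highest array of all and control tumor 6 the lowest, so the tumors surrounded the normal arrays. The difference over both groups was −0.77 (SE 0.44, adjusted p = 0.191). With the 3 arrays low in Hoxb13 left out, an alternative chosen after seeing the data, it was −1.03 with an adjusted p of 0.0477.

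Ccl3 and Ccl4, inflammatory chemokines of macrophages and lymphocytes, were dim in normal tissue. Ccl3 had −1.70 and −2.31 in microRNA tumors and −3.70 and −3.38 in microRNA normal tissue. In control tumors it ran from −2.74 through −2.03 to −0.81, against −5.17 and −4.28 in control normal tissue. All 9 tumors were well above background and lay above the 4 normal arrays, of which microRNA normal 2 alone was well above background. Over both groups the difference was 2.28 (SE 0.36, adjusted p = 0.0014). In control mice, where neither normal array was well above background, Ccl3 was at least 6.49-fold higher in tumors (adjusted p = 0.00274). This bound sets the mean of the tumors against the lowest signal of any probe well above background on each normal array, or the probe's own signal where that was higher. Brighter signals can still fail to be well above background, as Ccl4 did at −3.68 on control normal 1. The bound is thus not a strict lower limit, and the fold may be smaller. It depends on this scaling and makes no allowance for error, here and wherever a fold is given as at least. Under the alternatives of processing, the Ccl3 difference in control mice ran from 0.61 to 3.92 in log2. In microRNA mice the difference was 1.53 (SE 0.52, adjusted p = 0.122).

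Ccl4 passed the test in control mice and not in microRNA mice, and the difference between these effects did not itself pass (adjusted p = 0.6). In microRNA tumors it had −1.09 and −1.32, against −1.40 and −1.32 in microRNA normal tissue. Control tumors ran from −2.35 through −1.36 to −0.54, and control normal tissue had −3.68, which was not well above background, and −3.52. The microRNA normal arrays thus lay among the tumors, and the control normal arrays lay below all others. The difference was 0.16 in microRNA mice (SE 0.50, adjusted p = 0.886) and 2.11 in control mice (SE 0.40, adjusted p = 0.00812). Over both groups it was 1.35 (SE 0.40, adjusted p = 0.0246). It did not pass without control normal 1 (1.03, adjusted p = 0.129) or without control normal 2 (1.11, adjusted p = 0.126).

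Ccl5, which attracts T cells and monocytes, moved the opposite way from the other called genes of the monocyte-attracting list. It had −1.22 and −1.17 in microRNA tumors, against 4.62 and 4.30 in microRNA normal tissue. Control tumors ran from −1.69 through −0.60 to 1.78, against 1.84 and 2.33 in control normal tissue. After scaling, tumors and normal tissue did not overlap, although control tumor 1 came close to control normal 1. Before scaling they did overlap: control tumor 1 (signal 1420) and control tumor 5 (944) lay above control normal 1 (768). The difference was −3.69 over both groups of mice (SE 0.68, adjusted p = 0.00304), −5.66 in microRNA mice (SE 0.85, adjusted p = 0.00658) and −2.42 in control mice (SE 0.68, adjusted p = 0.0328).

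Markers of T and NK cells moved with Ccl5. Of 12 such markers, 9 were lower in tumors and none higher, with a median of −1.65. Their summed level was 8.12 and 8.42 in microRNA tumors and 34.9 to 60.3 in microRNA normal tissue, against 6.94 to 12.1 in control tumors and 17.4 to 20.6 in control normal tissue. Cd8b1, a chain of the CD8 co-receptor, was not well above background on any tumor and was at least 3.95-fold lower there (adjusted p = 0.00261). The T cell receptor subunits Cd3d (−1.90, SE 0.36, adjusted p = 0.0033) and Cd3g (−2.18, SE 0.41, adjusted p = 0.0033) and the cytotoxic granule gene Nkg7 (−1.65, SE 0.35, adjusted p = 0.00557) fell as well. Control tumors 1 and 5, which had the highest Ccl5 of the tumors, also had the highest marker sums of the tumors, 11.8 and 12.1. The part of these cells in the Ccl5 difference was not tested.

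Macrophage and monocyte markers moved with Ccl2 and Ccl7 when each marker was given equal weight. The mean log2 level of 11 such genes was 1.02 and 1.23 in microRNA tumors and 0.23 and 0.31 in microRNA normal tissue, against 0.69 to 1.55 in control tumors and 0.46 and 0.52 in control normal tissue, so that every tumor lay above every normal array. Their summed linear level overlapped between the tissues: 54.5 to 61.5 in microRNA tumors and 42.4 to 52.8 in microRNA normal tissue, against 50.2 to 72.9 in control tumors and 47.7 to 66.7 in control normal tissue. The integrin chain Itgam, which neutrophils carry too, was among the brightest genes of that sum, and differed by −0.67 (SE 0.31, adjusted p = 0.116). Of the 11, 4 were higher in tumors and none lower, with a median of 0.62. These were the lipopolysaccharide co-receptor Cd14 (1.61, SE 0.21, adjusted p = 0.000525), the Fc receptors Fcgr1 (0.77, SE 0.19, adjusted p = 0.0124) and Fcgr3 (1.09, SE 0.33, adjusted p = 0.025), and the fractalkine receptor Cx3cr1 (0.59, SE 0.18, adjusted p = 0.0245). The monocyte growth factor receptor Csf1r, a defining marker, stood at 3.74 ± 0.19 in tumors and 3.37 ± 0.19 in normal tissue (SD, n = 9 and 4), a difference of 0.34 (SE 0.15, adjusted p = 0.103). Neutrophil markers (6 genes) had 5 higher in tumors, and their sums were 123 to 137 in microRNA tumors and 92.4 to 106 in microRNA normal tissue, against 133 to 213 in control tumors and 71.4 to 119 in control normal tissue. Fibroblast markers had 3 of 8 higher and none lower, with a median of 0.77. The part of these cells in the Ccl2 and Ccl7 differences was not tested.

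**Figure D2:**
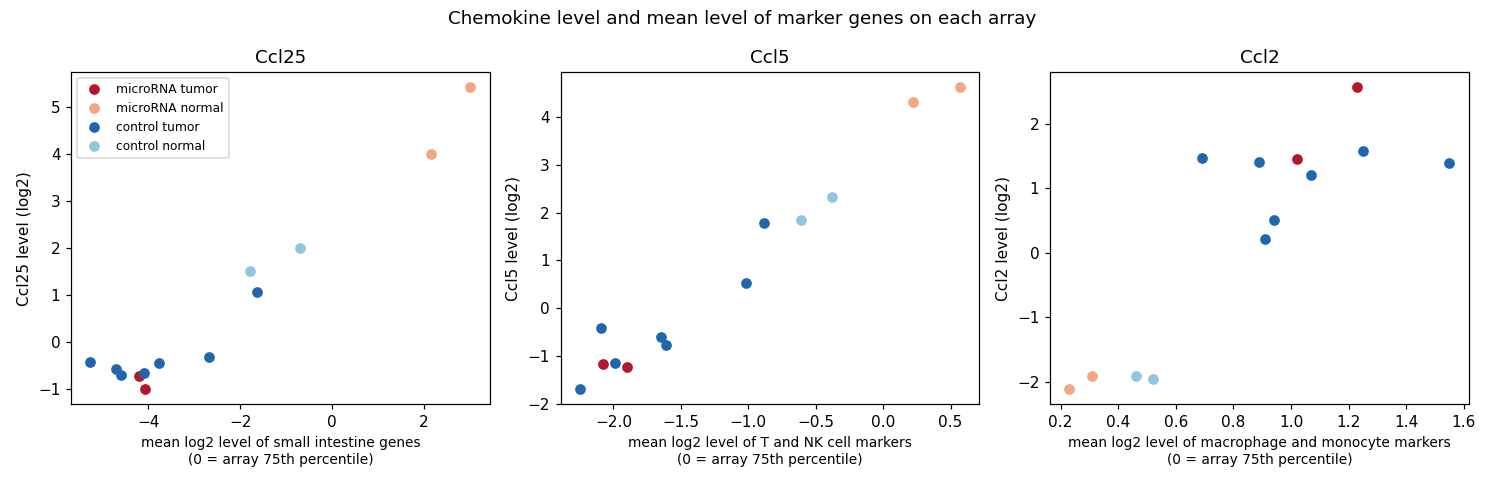
Level of Ccl25, Ccl5 and Ccl2 (log2, vertical axes) against the mean log2 level of small intestine genes, T and NK cell markers, and macrophage and monocyte markers on the same array (horizontal axes, 0 at the 75th percentile of the array). Each point is 1 of 13 arrays. The 2 microRNA normal arrays have the highest Ccl25 and small intestine means and the highest Ccl5 and T and NK means, and all 9 tumors exceed the 4 normal arrays both in Ccl2 and in the macrophage mean.

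Ccl25, the chemokine that draws Ccr9-bearing lymphocytes and plasma cells to the small intestine, was lower in tumors of both groups of mice. Its RefSeq gene has 2 annotated starts on chromosome 8, 24378 bases apart, and the 2 usable Ccl25 probes of the array did not behave alike. The 250 bases before each start are shown because these probes were designed on different transcripts of the gene (RefSeq, GRCm38.p6, plus strand). Which start gave the signal of each probe was not determined. Capitals mark matches to CNATAAA, a motif of Cdx factors, and to TATAAA, the TATA box, which overlap in the single match. The search also took in TGANTCA (AP-1) and the NF-kB consensus, each on both strands.
Ccl25 upstream start: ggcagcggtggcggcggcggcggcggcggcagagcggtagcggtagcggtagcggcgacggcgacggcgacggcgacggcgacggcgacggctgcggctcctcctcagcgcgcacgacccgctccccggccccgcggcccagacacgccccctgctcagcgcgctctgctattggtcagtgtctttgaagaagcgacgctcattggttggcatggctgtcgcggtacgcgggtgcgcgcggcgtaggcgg
Ccl25 downstream start: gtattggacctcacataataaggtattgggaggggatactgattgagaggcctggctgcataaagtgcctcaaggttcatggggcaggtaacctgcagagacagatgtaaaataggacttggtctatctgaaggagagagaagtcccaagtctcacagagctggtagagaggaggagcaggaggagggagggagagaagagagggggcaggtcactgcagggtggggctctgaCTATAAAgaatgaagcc
The upstream window (chr8:4324960-4325209) is rich in repeats of g and c and held none of the 4 motifs, and the downstream window (chr8:4349338-4349587) held 1 Cdx match, 17 to 11 bases before the start. Among 32851 promoter windows of the same length, 9.81% held the Cdx motif, 12.4% TATAAA, 6.75% the AP-1 motif and 3.9% the NF-kB consensus. The Cdx match was not particular to Ccl25: the window of Ccl8 held it too, 33 to 27 bases before the start. The window of Ccl20 held only an NF-kB match, 80 to 71 bases before the start, and those of Ccl3 and Ccl28 held none of the 4 motifs. A match of letters is a description of the window and shows no binding.

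The Ccl25 probe with the highest signal was designed on NM_009138 (chr8:4359916-4359975, plus strand, mm9) and represents the gene. It had −0.72 and −1.01 in microRNA tumors, against 5.42 and 4.00 in microRNA normal tissue. Control tumors ran from −0.71 through −0.44 to 1.05, and control normal tissue had 1.5 and 2.00. After scaling, no tumor reached the level of any normal array. Before scaling, control tumor 1 (signal 861) lay above control normal 1 (605). Of the 7 control tumors, 6 lay between −0.71 and −0.32, with control tumor 1 apart at 1.05. The difference was −3.43 over both groups of mice (SE 0.59, adjusted p = 0.00226), −5.58 in microRNA mice (SE 0.57, adjusted p = 0.000805) and −2.05 in control mice (SE 0.46, adjusted p = 0.0147).

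The other usable Ccl25 probe, designed on the non-coding transcript NR_033527 (chr8:4327833-4327892, plus strand, mm9), varied far less. It had −2.21 and −2.35 in microRNA tumors, against −1.79 and −1.46 in microRNA normal tissue. Control tumors ran from −3.03 through −2.61 to −2.11, and control normal tissue had −1.84 and −1.90. Tumors were lower than every normal array here too, by a small margin and only after scaling. Before scaling its signals overlapped, at 61.4 to 149 in tumors and 59.9 to 108 in normal tissue. In a fit of all 35214 probes, where 18.1% were called lower, its difference over both groups was −0.65 (SE 0.20, adjusted p = 0.0307), against −3.43 for the NM_009138 probe (SE 0.59, adjusted p = 0.00239). A further Ccl25 probe, designed on AK131875, was well above background on 1 array and was not tested. The 2 probes were not tested against each other.

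**Figure D3:**
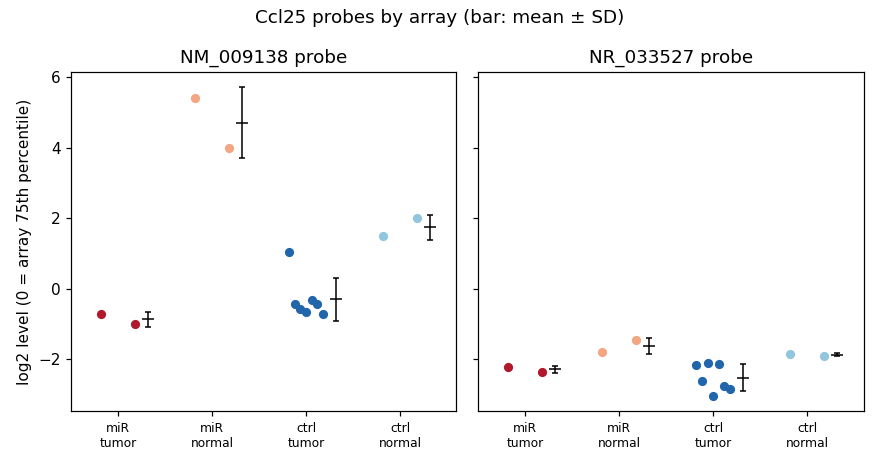
Levels of the 2 Ccl25 probes that passed the filter on dim signals (log2, 0 at the 75th percentile of the array), by array and group, with the mean ± SD as a bar. The NM_009138 probe reaches 5.42 in microRNA normal tissue, and the NR_033527 probe stays between −3.03 and −1.46 on every array.

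The genes of the small intestine moved with Ccl25. All 9 that were tested were lower in tumors (median −4.22), among them the fatty acid binding protein Fabp1 (−3.55, SE 0.59, adjusted p = 0.00187), the lipoprotein component Apoc3 (−4.08, SE 0.72, adjusted p = 0.00252), the ileal bile acid binding protein Fabp6 (−5.54, SE 1.12, adjusted p = 0.00453) and the disaccharidase Sis (−5.93, SE 1.24, adjusted p = 0.00531). Control tumor 1, the tumor with the highest Ccl25, also had the highest small intestine sum of the tumors, 107. The part of small intestine content in the Ccl25 difference was not tested. Other tissue markers were lower as well: mature colonocyte genes in 6 of 6, general epithelial markers in 4 of 8, smooth muscle markers in 8 of 8, adipocyte markers in 6 of 6 and squamous epithelium markers in 6 of 8. The part of these tissues was not tested either.

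Ccl28, made by colonic epithelium and known for attracting IgA plasma cells, did not pass the test. It had 0.77 and 1.21 in microRNA tumors, against 1.59 and 1.03 in microRNA normal tissue. Control tumors ran from −1.34 through 0.54 to 1.72, and control normal tissue had 1.88 and 1.94. After scaling, all 7 control tumors lay below both control normal arrays, and control tumors 3 and 6 were the lowest, while in microRNA mice the tissues overlapped. Before scaling, control tumors 2 (signal 1930) and 5 (1260) lay above both control normal arrays (790 and 1230). Control tumor 1 (851) lay between them. The difference was −1.09 over both groups (SE 0.50, adjusted p = 0.115), −0.32 in microRNA mice (SE 0.79, adjusted p = 0.85) and −1.58 in control mice (SE 0.63, adjusted p = 0.0927). In control mice it passed when control tumor 2 was left out and on slide 2 alone, with the same direction. Its probe lies on an unplaced part of chromosome 13 in mm9.

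Ccl20, a chemokine of the epithelium over lymphoid follicles and of inflamed epithelium, was not well above background on any of the 13 arrays. Its measured signals were −7.37 and −6.94 in microRNA tumors and −6.36 and −5.97 in microRNA normal tissue, and −7.19 to −6.48 in control tumors and −6.33 and −6.78 in control normal tissue. These values are at background. They came out lower in tumors (median −6.94 against −6.35 in normal tissue), where the percentile used for scaling was higher. This probe therefore gives no comparison for Ccl20 in either direction.

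**Figure D4:**
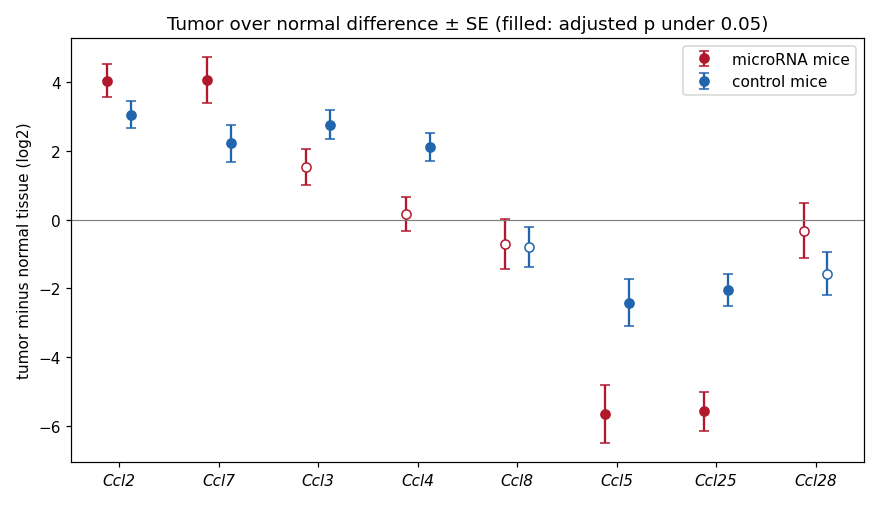
Difference between tumor and normal tissue (log2, ± SE) of the 8 measured CC chemokines, in microRNA mice and in control mice. Filled points had an adjusted p under 0.05. Ccl2 and Ccl7 lie above 0 and Ccl5 and Ccl25 below 0 in both groups of mice, and Ccl3 and Ccl4 are filled in control mice alone.

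Within control mice the members counted 4 higher and 2 lower of 8, where 8.18% of all genes were called higher and 10.9% lower. Within microRNA mice they counted 2 higher and 2 lower, where 1.39% of genes were called higher and 1.72% lower, with only 2 arrays of each tissue. In control mice the count of 2 lower was 0 without control normal 1 or without control normal 2, and 1 without control tumor 4 or without control tumor 6, where Ccl5 was lost. The count of 4 higher was 1 without control normal 1 and 2 without control normal 2. In microRNA mice, Ccl7 was lost without microRNA normal 1, microRNA normal 2 or microRNA tumor 1, and Ccl5 without microRNA normal 1 or microRNA tumor 1. Ccl2, Ccl7, Ccl5 and Ccl25 were called in both groups of mice (Ccl5 and Ccl25 not in control mice once the slide was a block), and Ccl3 and Ccl4 in control mice alone. Whether tumors differed from normal tissue by unequal amounts in the 2 groups of mice was itself tested, and none of the 8 was called, where 0.102% of genes were called higher and 0.18% lower. It was nearest for Ccl25, at −3.53 (SE 0.73, adjusted p = 0.0967), followed by Ccl4 at −1.95 (SE 0.64, adjusted p = 0.6). At an unadjusted p under 0.05, 667 genes were higher and 912 lower in that comparison.

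The slide was examined as a batch. With the slide as a block, the same 4 members were higher and the same 2 lower over both groups of mice, with Ccl4 at an adjusted p of 0.0497. Within control mice, both normal arrays lie on slide 2 and 6 of the 7 tumors on slide 1. There the block ended both lower calls: Ccl25 had −1.78 (adjusted p = 0.0781) and Ccl5 −2.55 (adjusted p = 0.0921). The direction was kept within slide 2, where control tumor 3 against both control normal arrays gave −2.32 for Ccl25 and −2.85 for Ccl5. On slide 2 alone, with 2 tumors and 3 normal arrays, the differences were 3.91 for Ccl2 (adjusted p = 0.019), 3.94 for Ccl7 (adjusted p = 0.0186), 3.1 for Ccl3 (adjusted p = 0.0345) and −4.13 for Ccl5 (adjusted p = 0.0346). There Ccl25 had −3.95 (adjusted p = 0.0552) and Ccl4 1.88 (adjusted p = 0.12). On slide 1 alone the tissue difference rests on microRNA tumor 2 against microRNA normal 2, since no control normal array lies there, and no member was called. Its differences were 3.38 for Ccl2, 3.52 for Ccl7, −5.47 for Ccl5 and −5.01 for Ccl25.

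Of 9 receptors listed, 7 were tested, and Ccr1 and Ccr4 were not well above background on enough arrays to be tested. None was higher in tumors and 1 was lower, with a median of −0.22, where 11.7% of all genes were higher and 19.7% lower. Ccr8, in mice a receptor of Ccl8, was lower, at −0.78 (SE 0.26, adjusted p = 0.0386). This gene was near background, and well above it only on microRNA normal 2, control normal 2 and control tumors 2, 3, 4 and 7. Ccl20, at background on every array, also came out lower in tumors (mean −6.92 against −6.36 in normal tissue). Ccr2, the monocyte receptor of Ccl2 and Ccl7, differed by 0.60 (SE 0.29, adjusted p = 0.126), and Ccr6, that of Ccl20, by −1.33 (SE 0.63, adjusted p = 0.125). Ccr10, the receptor of Ccl28, differed by −0.38 (SE 0.43, adjusted p = 0.513). Ccr9, the receptor of Ccl25, is named outside the rule for naming genes, after its values were seen, and differed by −0.22 (SE 0.33, adjusted p = 0.629). Of 3 atypical receptors, which bind chemokines without signalling through G proteins, Ackr4 was lower (−1.65, SE 0.34, adjusted p = 0.00495). It is known to bind Ccl25 as well as Ccl19 and Ccl21.

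Among 9 other CC chemokines tested, 4 were higher in tumors and 1 lower, with a median of 0.12. The eosinophil attractant Ccl24 was higher by 1.57 (SE 0.36, adjusted p = 0.00797) and Ccl17, a ligand of Ccr4, by 1.63 (SE 0.40, adjusted p = 0.0107). Ccl1, a ligand of Ccr8, was not well above background in normal tissue and was at least 3.64-fold higher in tumors (adjusted p = 0.0149). It was not well above background on control tumors 1, 3 and 6 either (−4.50, −4.74 and −4.93). Ccl19, which guides Ccr7-bearing cells into lymphoid tissue, was lower by −1.87 (SE 0.59, adjusted p = 0.0304). Its 2 highest arrays were those of control normal tissue, −0.12 and −0.82, which also had the highest summed B cell markers, 12.3 and 26.6 against at most 7.49 elsewhere.

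Most of the listed cytokines that induce inflammatory CC chemokines were higher in tumors. Of 9 genes in this list, 4 were higher and none lower, with a median of 1.31. Il1b had 2.05 and 1.65 in microRNA tumors and −1.95 and −0.96 in microRNA normal tissue, against 1.46 to 2.54 in control tumors and −2.07 and −2.47 in control normal tissue. Its difference of 3.90 (SE 0.28, adjusted p = 2.3e-05) came with one of 3.74 for Tnf (SE 0.43, adjusted p = 0.000222) and one of 2.04 for the adhesion molecule Icam1 (SE 0.31, adjusted p = 0.00117). Il6 was not well above background in normal tissue and was at least 20.2-fold higher in tumors (adjusted p = 0.00034). The remaining cytokine of the list, Il1a, was well above background on 3 control tumors and on no normal array, and did not pass the test (at least 2.1-fold, adjusted p = 0.0514). The NF-kB feedback genes Nfkbia, Nfkbiz, Relb and Tnfaip3 of the same list did not pass the test.

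**Figure D5:**
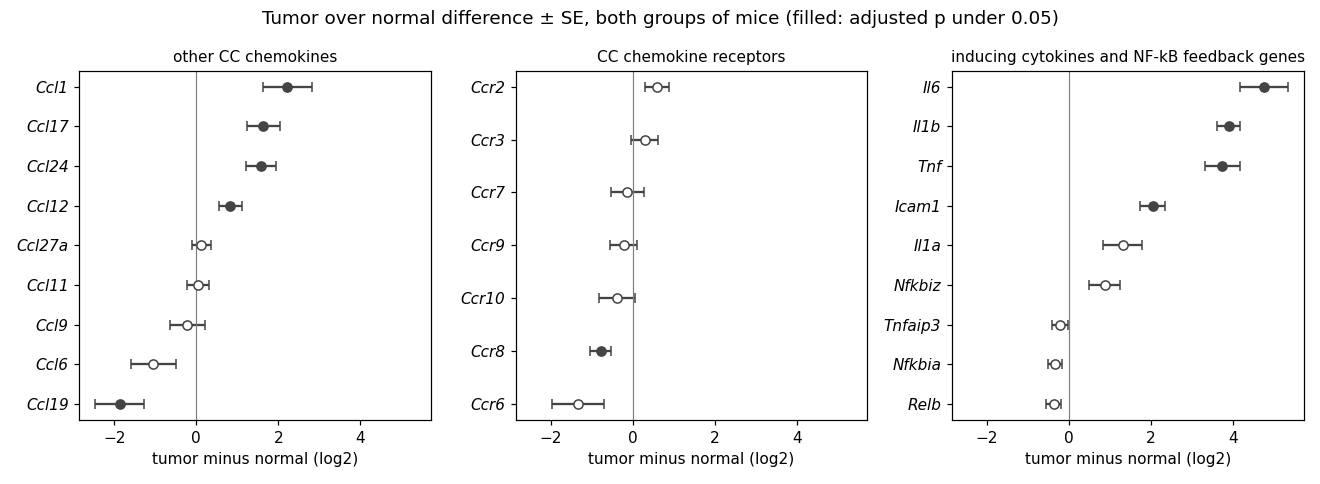
Difference between tumor and normal tissue over both groups of mice (log2, ± SE) for the other CC chemokines, the CC chemokine receptors, and the inducing cytokines with NF-kB feedback genes. Filled points had an adjusted p under 0.05. The fitted values of Il6, Il1a and Ccl1 rest on normal arrays at background, Il1b and Tnf differ by 3.90 and 3.74, and no receptor differs by more than 1.33.

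The second question of the design was whether the injected microRNAs changed these genes. Over both tissues no member was called, as for all genes (0% called higher and 0% lower, with 363 and 214 at an unadjusted p under 0.05). The largest member difference was 1.04 for Ccl4 (SE 0.40, unadjusted p = 0.0227, adjusted p = 1). In tumors none was called either, where 0.00392% of genes, a single one, were called higher and 0% lower. Ccl2 was at 2.57 and 1.45 in microRNA tumors, against a highest value of 1.57 in control tumors, a difference of 0.90 (SE 0.39, unadjusted p = 0.038, adjusted p = 1). Ccl25 differed by −0.57 (SE 0.46, adjusted p = 1), with both microRNA tumors below all 7 control tumors, if only just.

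In normal tissue 1 of 8 members was called higher and none lower, where 0.286% of all genes were called higher and 0.247% lower. It was Ccl25, at 5.42 and 4.00 in microRNA normal tissue against 1.5 and 2.00 in control normal tissue, a 7.78-fold difference (log2 2.96, SE 0.57, adjusted p = 0.0452). This call was kept in 5 of 26 alternatives, with adjusted p values up to 0.44. It was lost on leaving out any single array other than control tumor 1 or microRNA normal 2. In the fit of all probes the same probe had an adjusted p of 0.0516, and the NR_033527 probe differed by 0.25 (SE 0.34, adjusted p = 0.959). Small intestine genes moved with it, 3 of 9 higher and none lower with a median of 3.01, led by the apolipoproteins Apoa1 (8.53, SE 0.69, adjusted p = 0.00027) and Apoa4 (3.01, SE 0.27, adjusted p = 0.000346) and by Fabp6 (6.89, SE 1.10, adjusted p = 0.0135). Squamous epithelium markers went the other way, 6 of 8 lower. The part of tissue sampling in the Ccl25 difference was not tested.

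The remaining members did not pass in normal tissue. Ccl4 had −1.40 and −1.32 in microRNA normal tissue and −3.68 and −3.52 in control normal tissue (difference 2.23, SE 0.50, adjusted p = 0.113), and it passed only when control tumor 3 was left out. Ccl5 had 4.62 and 4.30 in microRNA normal tissue, against 1.84 and 2.33 in control normal tissue (difference 2.37, SE 0.85, adjusted p = 0.655). Ccl3, not well above background in control normal tissue, was at least 2.17-fold higher (adjusted p = 0.884). Ccl7 had −2.55 and −2.69 in microRNA normal tissue, against −1.72 and −1.51 in control normal tissue (difference −1.0, SE 0.67, adjusted p = 0.959). Ccl28 had 1.59 and 1.03 in microRNA normal tissue, against 1.88 and 1.94 in control normal tissue (difference −0.60, SE 0.79, adjusted p = 0.965). Ccl2 differed by −0.08 and Ccl8 by −0.27.

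Over the 9 tumors, 13818 genes with an official symbol and a signal well above background on every tumor were ranked by their Pearson correlation with a member, as a description. The genes most like Ccl2 were Ints14 (r = 0.94), Mfsd14b (0.89) and Adss (0.88). Those most like Ccl25 were Rapgef2 (0.96), Ykt6 (0.96) and Chp1 (0.94), with control tumor 1 at the far end of the Ccl25 range. Those most like Ccl28 were Tmem117, Deptor and Adgrg7, each at 0.98. The arrays share slides and perhaps animals, and no p is given for the highest of so many correlations.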

How the data were processed

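Each array was hybridized with Cy3-labelled RNA made from 35 ng of total RNA, per the labels, and read in 1 colour. The deposited values are fluorescence intensity on a linear scale, which the authors extracted, background-subtracted and detrended with Feature Extraction 10.7.3.1, per the file headers, without scaling between arrays. Control spots were left out and outlier spots set to missing. Levels are log2 intensity minus log2 of the 75th percentile of that array. Probes well above background on at least 2 of 13 arrays were kept (35214), and the brightest probe represented each gene (25486 genes). Of the probes kept, 54 lacked a value on some array and were fitted without it. The number of arrays limits the precision.

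All 13 arrays were fitted together with limma 3.58.1 (lmFit, then eBayes; R 4.3.3, version 1.17.8 of data.table), with Benjamini-Hochberg adjustment over all genes and calls under 0.05. Of the 7 comparisons, those over both groups of mice or both tissues came from additive terms for tissue and treatment, and the rest from the 4 group means. Of each gene list, up to 4 genes with the smallest p were named, with defining markers that stand beside a member. The 3 genes most like Ccl2, Ccl25 and Ccl28 were named too. The members and the 22 lists were chosen with earlier results of these data known. Promoter windows came from RefSeq (GRCm38.p6), whose table held 5 of the 9 members. Ccl2, Ccl4, Ccl5 and Ccl7 had no entry. A receptor of the receptor list is not reported here. Plots used matplotlib 3.10.9 under Python 3.11.15. The alternatives were other scalings, background correction, filters, probe rules, variance models, blocks, sets of arrays and each array left out.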

Additional observations from a re-analysis of the deposited data

Results flagged for a closer look

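Ccl25 in control tumor 1 stood apart from the other 6 control tumors. Its level was 1.05, and the next tumor was at −0.32, so the gap took 0.779 of the range of the 7 arrays, more than the 95% critical value of Dixon's test for 7 values allows. Chance flags about 1 in 20 groups, and 8 genes were examined in this way. Control tumor 1 also had the highest small intestine sum (107) of the control tumors.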

How the results depend on the processing

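No member's difference that passed the test changed direction under any alternative. Over both groups of mice, members called higher numbered 2 with normexp background correction (Ccl3 at 0.52 and Ccl4 at 0.37 did not pass) and 2 with both control normal arrays left out (which leaves the comparison within microRNA mice), 0 on slide 1 alone, and 3 to 4 with 1 array left out. Members called lower numbered 1 with the replicate number as a block (replicate block), 1 on slide 2 alone and 0 on slide 1 alone. In control mice, members higher numbered 2 with normexp, 1 with the replicate block and 1 to 4 with 1 array left out. Members lower there numbered 0 without scaling, 0 with the replicate block, 0 with the slide as a block, 0 without the 2 arrays with Xist signal (control tumor 3 and control normal 2), 1 when only the compared groups were fitted, and 0 to 3 with 1 array left out. In microRNA mice, members higher and members lower were 0 each on slide 1 alone and 1 to 2 each with 1 array left out. Ccl25, the member higher in microRNA normal tissue, was called in 5 of 26 alternatives. The count there was 0 to 1 when 1 array was left out (Ccl4 in place of Ccl25 without control tumor 3), and 0 with the file-name number or slide as a block, the mean of all probes, median scaling, quantile normalization, no filter on dim probes, only the compared groups, the replicate block, slide 2 alone, and no arrays with Xist signal. The difference between the tumor effects had 1 member lower, Ccl25, without scaling, and 0 to 1 with 1 array left out (1 without control tumor 1). Deviations of same-numbered arrays from their group means correlated at −0.19 to 0.42, so the replicate numbers of the titles were not read as pairs. Within microRNA mice, tumor and normal arrays of the same number also share a number in the file names and a slide. Their deviations correlated at 0.42. Where both groups have 2 arrays, the deviations within a group mirror each other. Both pairs must then give the same value, which counts once. With the file-name number as a random block, whose consensus correlation was 0.347, the same members were called over both groups of mice. Genes called over both groups of mice numbered 7997, of which 37.3% were higher. They numbered 15312 without scaling (95.5% higher, with a median over all genes of 0.89), 12200 with normexp (21.8% higher), 13006 without the filter (24%), 6500 with median scaling (54.1%), 7824 with quantile normalization (51.6%), 2840 with the replicate block, 10 on slide 1 alone, 4894 on slide 2 alone, 4149 without the arrays with Xist signal, 585 without both control normal arrays, 4565 without both microRNA normal arrays, 4663 without control normal 1 and 3846 without control normal 2. The causes of these changes were not tested. With 2 arrays in 3 of the 4 groups, a lone array left in a group was assumed to vary like the others, and differences near the background of the array, as for Ccl3 and Ccl4, are limited by signal.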
